A study of Mus musculus with 9 samples.

Results

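Expression of 9 genes of pericellular proteolysis was examined in unstimulated RAW264.7 macrophages, an Abelson virus-transformed mouse line. The 9 genes are the matrix metalloproteinases Mmp8, Mmp12, Mmp13, Mmp14 and Mmp19, the tissue inhibitors of metalloproteinases Timp1, Timp2 and Timp3, and the membrane protease Adam8. The set was given by name and matched by symbol to the gene identifiers of the count lists, and all 9 were found among 55487 identifiers. RNA was sequenced from 9 libraries, 3 for each of 3 genotypes of the transcription factor C/EBPδ, and no cells received a stimulus. Wild-type macrophages carried unedited Cebpd. In ΔTAD macrophages (labelled CEBPD TAD) CRISPR guides had removed the transactivation domain, so that a protein able to bind DNA remained under its own promoter. Knock-out macrophages (CEBPD KO) were clones of the same editing whose deletion shifted the reading frame. The study took these as full knock-outs, and RNA libraries do not measure whether C/EBPδ protein was absent. Edited cells were single-cell clones that had gone through sorting and puromycin selection, which limits each as a model of its genotype, and the design text speaks of 3 independent clones without tying a clone to a library. The p-values below therefore measure the spread between libraries.

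Matrix metalloproteinases (MMPs) are zinc-dependent endopeptidases that are made as inactive proenzymes and, once activated, cut collagens, laminins, elastin and many cell surface proteins. TIMPs are small secreted proteins that occupy the active site of MMPs, and TIMP2 also takes part in the activation of pro-MMP2 at the cell surface together with MMP14. Macrophages are a classical source of MMP12, the macrophage elastase, and of MMP9, whereas ADAM8 is a disintegrin and metalloproteinase of leukocytes that sheds adhesion and signalling molecules from the membrane.

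Between 16113306 and 20981829 reads were counted on genes per library, so that a count of 3, used here as a floor, is 0.143 to 0.21 CPM (counts per 1000000 counts of the library, after scaling). ΔTAD replicate 1 stood apart, with 11% of its counts on the transcript CT010467.1 against 0.303% to 1.16% in the other libraries. Without it, 83 of the 86 tested genes of the lists and of the text kept their call in ΔTAD against wild-type macrophages, 2 lost it (Mmp9 and Pcsk7) and Cep295nl gained it. In knock-out against ΔTAD macrophages 80 of the 86 kept their call, 5 lost it (Bsg, Cep295nl, Col18a1, Elf1 and Mfge8) and Ocstamp gained it. Cebpd itself was at 6.13, 7.29 and 6.12 CPM in wild-type, 5.22, 5.50 and 5.61 CPM in knock-out and 4.90, 5.23 and 6.19 CPM in ΔTAD libraries. Its transcript thus does not check the labels, since neither difference passed the test (log2 fold change −0.26 and −0.24, edgeR adjusted p = 0.085 and 0.0931) and most of the transcript lies outside the deleted part. Of 11 macrophage markers 10 were tested, of which 6 were higher and 2 lower in knock-out and 7 higher and 2 lower in ΔTAD macrophages, and Mertk was near 0. Their summed level was 3507 to 3699 CPM in wild-type, 4619 to 5001 CPM in knock-out and 7132 to 7310 CPM in ΔTAD libraries, and their part in the results was not tested. Lyz2 made up most of the difference, at 1167, 2114 and 4192 CPM on average, and without it the list summed to 2409 to 2515, 2611 to 2721 and 3007 to 3065 CPM. Markers of lymphocytes and fibroblasts summed to at most 0.349 and 0.182 CPM in a library, and those of neutrophils to at most 1.48 CPM. Of 7 epithelial and endothelial markers only Pecam1 and Kdr were tested, both lower in both edited genotypes, and the list summed to at most 4.04 CPM.

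Only 3 of the 9 genes, Timp2, Mmp19 and Adam8, had enough counts to be tested. Mmp8, Mmp13 and Timp3 were at 0 counts in every library, and Mmp12, Mmp14 and Timp1 had at most 5 counts in any library. In knock-out macrophages 1 of the 9 genes was higher and 1 was lower than in wild-type macrophages at an adjusted p under 0.01 (hereafter called), and in ΔTAD macrophages 2 were higher and 1 was lower. Calls were common in these cells, at 45.2% of the 14312 tested genes in knock-out (22.8% higher and 22.4% lower) and 49.7% in ΔTAD macrophages (26.3% higher and 23.4% lower). The counts of calls among 3 testable genes are therefore not a result about the set, and the values of single genes are given instead. These shares are also the background for the counts of calls in each gene list of the text.

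**Figure D1:**
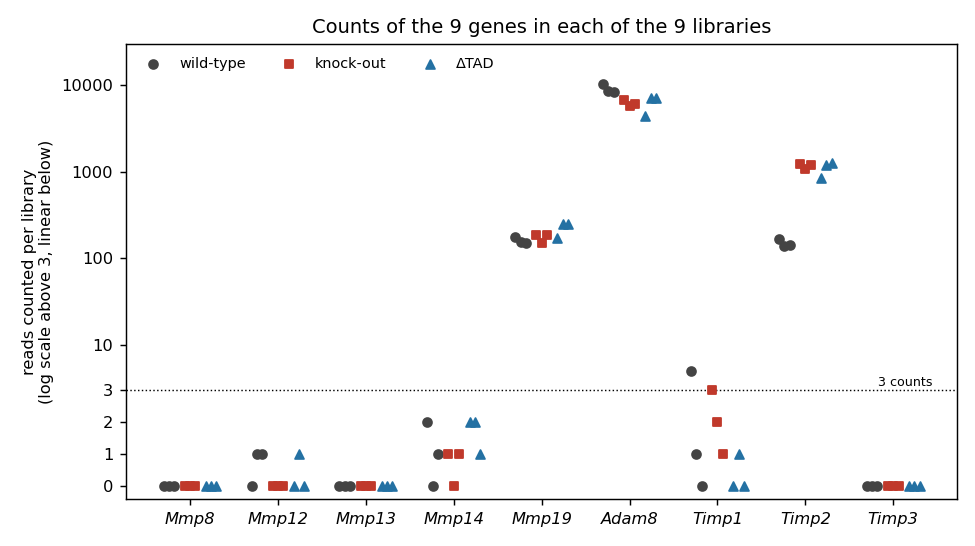
Reads counted for each of the 9 genes in each library, on an axis that is logarithmic above 3 counts and linear below, with wild-type as circles, knock-out as squares and ΔTAD as triangles; the dotted line marks 3 counts. Timp2 lies between 140 and 168 counts in wild-type libraries and between 842 and 1248 in all edited libraries, whereas Mmp8, Mmp13 and Timp3 lie at 0 in all 9.

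Timp2 (ENSMUSG00000017466) showed the largest difference among the 9 genes. It spans chr11:118301069-118355740 of GRCm38 on the minus strand and encodes the inhibitor with which pro-MMP2 forms a complex. In wild-type libraries Timp2 was counted 168, 140 and 142 times, or 8.38, 8.10 and 8.60 CPM. In knock-out libraries it reached 1241, 1067 and 1200 counts, or 65.4, 64.5 and 68.0 CPM. In ΔTAD libraries there were 842, 1200 and 1248 counts, or 58.9, 57.6 and 59.4 CPM. Every edited library thus lay far above every wild-type library, and the libraries of a genotype lay close together, ΔTAD replicate 1 included. Of the tested genes 59.7% did not overlap with wild-type in knock-out libraries and 63.1% in ΔTAD libraries. Mean levels were 8.36 ± 0.249 CPM (SD, n = 3) in wild-type, 66.0 ± 1.82 CPM in knock-out and 58.6 ± 0.914 CPM in ΔTAD macrophages. The fitted increase was 7.89-fold in knock-out (log2 fold change 2.98, SE 0.0589, Benjamini-Hochberg adjusted p = 2.22e-22 by the quasi-likelihood test of edgeR). It was 7.01-fold in ΔTAD macrophages (log2 fold change 2.81, SE 0.0596, edgeR adjusted p = 4.97e-22). Few genes rose as much. Timp2 included, 45 genes called higher in knock-out (0.314% of those tested) and 70 in ΔTAD macrophages (0.489%) changed at least as far. In bulk RNA a larger share of expressing cells and more RNA per cell cannot be told apart.

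Timp2 lies in a GC-rich promoter setting. The RefSeq window from 250 bases before to 50 bases after its start (chr11:118355362-118355661, GRCm38.p6, minus strand) held 68.7% G and C, against a median of 52.7% over 32817 windows of the same length. Each window was searched on both strands for 5 short motifs, none of which can lie inside another although their ends may overlap. The TATA box was searched as TATAAA and the binding site of AP-1 factors as TGANTCA. The box that gave C/EBP factors their name, which factors of the NF-Y family also bind, was searched as CCAAT. The core of the C/EBP site itself was searched as TTNNGNAA. The GC box, bound by Sp factors, was searched as GGGCGG. The window of Timp2 held 1 CCAAT, 162 bases before the start, and 1 GGGCGG, 37 bases before the start, and no match to the other letters. Of all windows 37.4% held CCAAT, 35.6% GGGCGG, 40.7% TTNNGNAA, 13.6% TATAAA and 7.81% TGANTCA. As 203 of the 250 bases before this start are exon in the GENCODE annotation, which has transcripts that begin further upstream, only the 30 bases around each match are shown, 5′ to 3′ on the strand of the gene with the match in capitals.
Timp2 CCAAT box, chr11:118355556-118355585: cgtgtgtgagtgCCAATccagcgcgcagtc
Timp2 GC box, chr11:118355431-118355460: ctggggagggctGGGCGGcgcggcgcggga
A match describes the letters of this window and is not a measured binding site.

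The surroundings of Timp2 did not rise as a block. Within 1 Mb, 27 other genes were tested, and their median log2 fold change against wild-type was −0.02 for each edited genotype. The strongest rise in knock-out macrophages was that of Cep295nl, which lies inside an intron of Timp2 on the same strand. Cep295nl was counted 4, 8 and 9 times in wild-type, 38, 29 and 34 times in knock-out and 7, 24 and 19 times in ΔTAD libraries. It was called in knock-out (log2 fold change 2.26, edgeR adjusted p = 3.47e-06) but not in ΔTAD macrophages (1.17, edgeR adjusted p = 0.0128), with a difference between them of 1.10 (edgeR adjusted p = 0.00272). Without ΔTAD replicate 1 it was called in ΔTAD macrophages (1.36, edgeR adjusted p = 0.00335) and the difference of 0.90 no longer passed (edgeR adjusted p = 0.0109). Whether the reads of Cep295nl stem from unspliced Timp2 RNA was not tested. Lgals3bp, a secreted galectin ligand that begins upstream of Timp2, was higher in both genotypes (log2 fold change 1.11 in knock-out and 1.23 in ΔTAD macrophages, edgeR adjusted p = 4.14e-14 and 3.31e-15). Socs3, a feedback inhibitor of cytokine receptors, was lower in both (−1.43 and −1.58, edgeR adjusted p = 2.28e-13 and 3.29e-14). Ccdc40 fell further in both (−1.54 and −1.83, edgeR adjusted p = 5.79e-08 and 4.41e-09). Lgals3bp, Socs3 and Ccdc40 were picked from the neighbours after their values were seen.

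**Figure D2:**
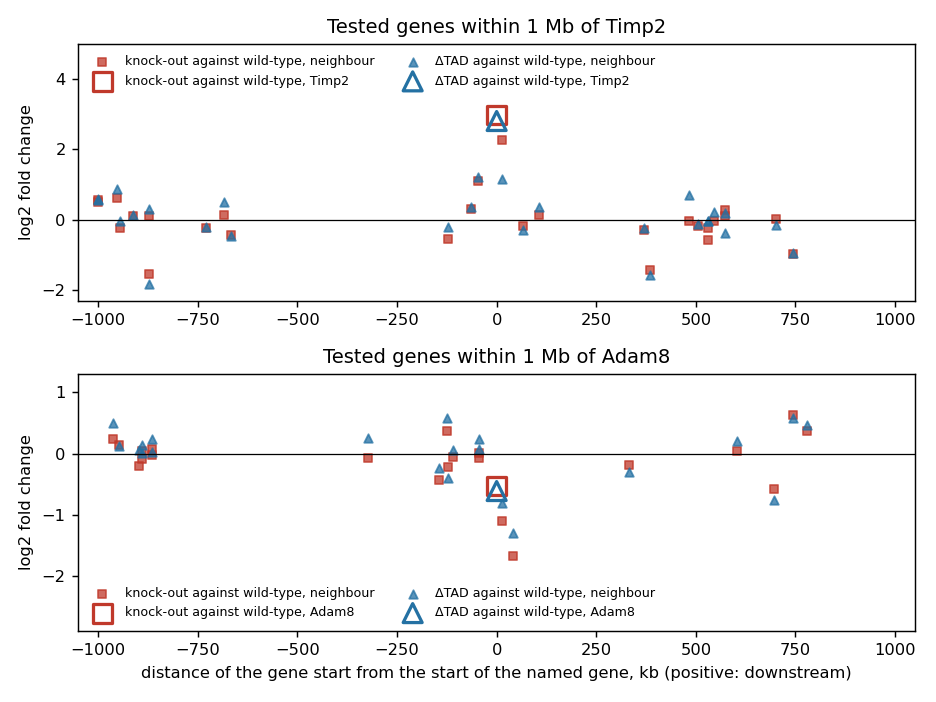
Log2 fold change of every tested gene within 1 Mb of Timp2 (upper panel) and Adam8 (lower panel) against the distance of its start from that of the named gene, in kb along the strand of the named gene; squares are knock-out and triangles ΔTAD against wild-type, and the large open symbols are Timp2 and Adam8. Timp2, at 2.98 and 2.81, stands above all 27 neighbours, whereas 3 neighbours of Adam8 lie below it in both genotypes.

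RNA of the other inhibitors was near or at 0. Timp1 (ENSMUSG00000001131, chrX:20870166-20874735, plus strand), a broad inhibitor of secreted MMPs that lies within Syn1 on the other strand, was counted 5, 1 and 0 times in wild-type libraries. It had 3, 2 and 1 counts in knock-out and 0, 1 and 0 in ΔTAD libraries. Summed over each genotype these are 0.111 CPM in wild-type (95% exact Poisson interval 0.0409 to 0.243), 0.113 CPM in knock-out (0.0414 to 0.246) and 0.0178 CPM in ΔTAD macrophages (0.000451 to 0.0993). These intervals cover counting error only, and they overlap between all genotypes. With every gene of at least 1 count kept, Timp1 was not called either (smallest edgeR adjusted p = 0.239, in ΔTAD against wild-type). Timp3 (ENSMUSG00000020044, chr10:86300372-86349506, plus strand), the inhibitor that binds to the matrix and also blocks ADAM proteases, was at 0 in all 9 libraries. A count of 0 over the 3 libraries of a genotype allows up to 0.0694 CPM in knock-out, 0.0685 CPM in wild-type and 0.0657 CPM in ΔTAD macrophages at the 95% level.

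Among the proteases, Mmp19 (ENSMUSG00000025355, chr10:128790910-128800824, plus strand) was the only MMP of the set that was expressed. MMP19 is a secreted enzyme that cuts basement membrane components. Mmp19 was counted 175, 155 and 149 times in wild-type (8.72, 8.97 and 9.02 CPM), 185, 152 and 185 times in knock-out (9.75, 9.18 and 10.5 CPM) and 173, 249 and 246 times in ΔTAD libraries (12.1, 12.0 and 11.7 CPM). The ranges of the 3 genotypes did not overlap, with wild-type lowest and ΔTAD highest. Taken pair by pair, 59.7% of the tested genes did not overlap with wild-type in knock-out libraries and 63.1% in ΔTAD libraries. The mean of 11.9 ± 0.199 CPM (SD, n = 3) in ΔTAD macrophages was higher than the 8.91 ± 0.159 CPM of wild-type macrophages (1.34-fold, log2 fold change 0.42, SE 0.0884, edgeR adjusted p = 0.000238). The mean of 9.81 ± 0.651 CPM in knock-out macrophages did not pass the test against wild-type (log2 fold change 0.14, 95% confidence interval −0.05 to 0.33, edgeR adjusted p = 0.205). Tmem198b overlaps the end of Mmp19 on the other strand and was not called in either comparison. Whether the counting used the strand is not given in the sources used here, so reads from the stretch shared by Mmp19 and Tmem198b are uncertain.

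Mmp8, Mmp12 and Mmp13 belong to a tandem array on chromosome 9. Mmp8 (ENSMUSG00000005800, chr9:7558456-7568485) encodes the neutrophil collagenase, Mmp12 (ENSMUSG00000049723, chr9:7344381-7369499) the macrophage elastase and Mmp13 (ENSMUSG00000050578, chr9:7272514-7283331) a collagenase of fibrillar collagen, all on the plus strand. The array holds 10 Mmp genes between 7272514 and 7699585, a stretch of 427 kb in which no gene passed the filter. All 10 together gave 3 counts in the 9 libraries, out of 163030154 counts on genes. Those 3 counts were of Mmp12, 1 each in wild-type replicates 2 and 3 and in ΔTAD replicate 2. The macrophage elastase gene thus stayed under the floor of 3 counts in every library. Around the array 5 genes within 1 Mb were tested, and their median changed by 0.05 (knock-out) and −0.01 (ΔTAD) on the log2 scale.

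Most promoter windows of the array held TATAAA and TGANTCA and lacked GGGCGG, unlike those of Timp2 and Adam8. Some array windows held CCAAT, as did Timp2 and Adam8, or TTNNGNAA, as did Adam8. The letters did not separate the genes near or at 0 from the expressed genes of the set. RefSeq gives 12 windows for the 10 array genes, with 37.7% to 52% G and C. Of these 9 held TATAAA and 8 held TGANTCA, against 13.6% and 7.81% of all windows, whereas 6 held TTNNGNAA, 4 held CCAAT and 0 held GGGCGG. The window of Mmp13 is shown because an AP-1 site and a TATA box lie in it side by side, 35 and 16 bases before the start. That of Adam8 is shown because it holds CCAAT and TTNNGNAA, as did 37.4% and 40.7% of all windows. Both are given 5′ to 3′ on the strand of the gene for the 250 bases before the RefSeq start (GRCm38.p6). The AP-1, TATA, CCAAT and GC box letters are in capitals, also where the match is on the other strand. Matches to TTNNGNAA are not in capitals.
Mmp13, chr9:7272264-7272513, plus strand: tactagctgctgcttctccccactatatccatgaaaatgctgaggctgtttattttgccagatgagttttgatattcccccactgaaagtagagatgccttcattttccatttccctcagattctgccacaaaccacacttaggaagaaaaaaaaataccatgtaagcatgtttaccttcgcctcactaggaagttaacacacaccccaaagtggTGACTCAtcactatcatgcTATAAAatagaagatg
Adam8, chr7:139992563-139992812, minus strand: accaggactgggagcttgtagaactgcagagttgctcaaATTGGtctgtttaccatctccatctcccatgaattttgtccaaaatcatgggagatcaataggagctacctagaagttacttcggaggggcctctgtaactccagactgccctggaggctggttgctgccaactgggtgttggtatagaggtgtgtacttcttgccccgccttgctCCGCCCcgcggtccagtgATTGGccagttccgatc
Adam8 held CCAAT at 211 and 17 bases before the start, GGGCGG at 35 and TTNNGNAA at 219, all on the other strand, in a window of 52.3% G and C. No window for Mmp19 was in the table, and 8 of the 9 genes had at least 1. Among the other genes near or at 0, Timp3 held 2 GC boxes in a window of 67% G and C. Mmp14 held 2 GC boxes and 2 CCAAT boxes, and Timp1 held 1 GC box, 1 CCAAT box and 1 C/EBP core.

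Mmp14 (ENSMUSG00000000957, chr14:54431612-54445364, plus strand) encodes the membrane-type MMP that cuts collagen at the cell surface and activates pro-MMP2. It was counted 2, 0 and 1 times in wild-type, 1, 0 and 1 times in knock-out and 2, 2 and 1 times in ΔTAD libraries. Its summed level was 0.0557 CPM in wild-type (95% exact Poisson interval 0.0115 to 0.163), 0.0376 CPM in knock-out (0.00456 to 0.136) and 0.0891 CPM in ΔTAD macrophages (0.0289 to 0.208). At this depth no difference in Mmp14 was detectable.

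Adam8 (ENSMUSG00000025473, chr7:139978932-139992562, minus strand) was by far the most abundant of the 9 genes and fell in both edited genotypes. It was counted 10314, 8491 and 8378 times in wild-type libraries, or 514, 491 and 507 CPM. In knock-out libraries it had 6784, 5769 and 6025 counts, or 358, 349 and 341 CPM. In ΔTAD libraries it had 4464, 7073 and 7085 counts, or 312, 340 and 337 CPM. The lowest wild-type library thus lay well above the highest edited library. Such separation from wild-type, in either direction, held for 59.7% of the tested genes in knock-out and 63.1% in ΔTAD libraries. The mean of 504 ± 11.7 CPM (SD, n = 3) in wild-type macrophages compared with 349 ± 8.16 CPM in knock-out macrophages, which is 69.3% of wild-type (log2 fold change −0.53, SE 0.0372, edgeR adjusted p = 8.9e-12). In ΔTAD macrophages the mean was 330 ± 15.1 CPM, or 65.4% of wild-type (log2 fold change −0.61, SE 0.0373, edgeR adjusted p = 4.93e-13). Falls of at least this size were frequent. Adam8 included, 1140 genes called lower in knock-out (7.97% of those tested) and 1325 in ΔTAD macrophages (9.26%) changed at least as far.

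A transcript next to Adam8 fell further. Gm16201, a noncoding transcript on the other strand whose end overlaps that of Adam8, had 703, 604 and 543 counts in wild-type, 197, 193 and 179 in knock-out and 198, 286 and 296 in ΔTAD libraries. Its log2 fold change was −1.68 in knock-out (edgeR adjusted p = 6.23e-16) and −1.30 in ΔTAD macrophages (edgeR adjusted p = 2.37e-14). The neighbouring gene 6430531B16Rik also fell in both (−1.10 and −0.80, edgeR adjusted p = 1.04e-05 and 0.000221). The 21 tested genes within 1 Mb had a median log2 fold change of −0.05 (knock-out) and 0.07 (ΔTAD), so the fall was not shared by the wider region.

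Per length, the make-up of the set shifted between genotypes. In CPM per kb of exon, wild-type macrophages had 109 ± 2.52 of Adam8, 2.52 ± 0.045 of Mmp19 and 2.15 ± 0.0638 of Timp2 (SD, n = 3). Mmp19 exceeded Timp2 in each of the wild-type libraries, at 2.47, 2.54 and 2.55 against 2.15, 2.08 and 2.21. In knock-out macrophages the order turned to Adam8 at 75.3 ± 1.76, Timp2 at 16.9 ± 0.468 and Mmp19 at 2.78 ± 0.184 CPM per kb. In ΔTAD macrophages it was the same order, at 71.1 ± 3.26, 15.1 ± 0.235 and 3.37 ± 0.0565 CPM per kb. The ratio of Timp2 to Mmp19 per kb rose from 0.851 ± 0.0282 in wild-type to 6.11 ± 0.246 in knock-out and to 4.46 ± 0.123 in ΔTAD macrophages. Adam8 exceeded Timp2 50.7 ± 1.01 times in wild-type and only 4.45 ± 0.201 and 4.72 ± 0.253 times in knock-out and ΔTAD macrophages. The order among the 6 genes at or near 0 was within counting error. These ratios concern RNA and give no measure of protease activity.

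Knock-out and ΔTAD macrophages were also compared directly, to set loss of the whole factor beside loss of its transactivation domain. Of the 9 genes only 3 were tested, of which 1 was called. Over all tested genes 33.0% were called (13.9% higher and 19.1% lower in knock-out), so this count is not a result about the set. Timp2 was 1.13-fold higher in knock-out than in ΔTAD macrophages (log2 fold change 0.17, SE 0.0426, 95% confidence interval 0.08 to 0.26, edgeR adjusted p = 0.00218), and this call was lost without knock-out replicate 3 or without ΔTAD replicate 2 (log2 fold change 0.15 in each, edgeR adjusted p = 0.0177 and 0.0204). Mmp19 was lower in knock-out macrophages without passing the threshold (log2 fold change −0.28, 95% confidence interval −0.46 to −0.10, edgeR adjusted p = 0.0116). For Adam8 the difference was 0.08 (95% confidence interval 0.005 to 0.16, edgeR adjusted p = 0.075). The libraries of the genotypes did not overlap for Timp2 and Mmp19, as was the case for 52.8% of the tested genes, and for Adam8 they came as close as 341 and 340 CPM. The differences between edited genotypes were thus small beside the distance of Timp2 and Adam8 from wild-type. Both comparisons with wild-type share the same 3 wild-type libraries, so their values stand side by side and are not independent of each other.

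**Figure D3:**
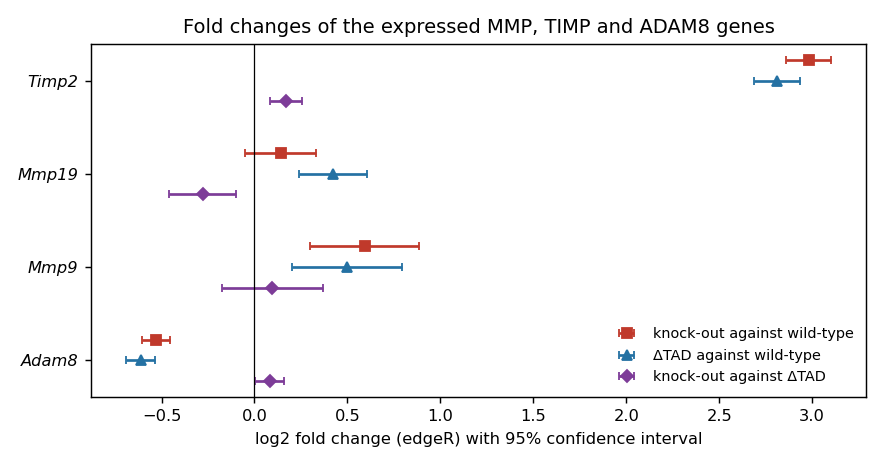
Fitted log2 fold changes (points) with 95% confidence intervals (bars) of the expressed genes Timp2, Mmp19 and Adam8 and of Mmp9, for knock-out against wild-type (squares), ΔTAD against wild-type (triangles) and knock-out against ΔTAD (diamonds). Timp2 lies near 2.98 and 2.81 against wild-type but at 0.17 between the edited genotypes, and only Adam8 lies below 0 against wild-type in both.

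Of the remaining 19 MMP and TIMP genes 9 were at 0 in every library, 14 had at most 3 counts in every library and only Mmp9, the gelatinase of macrophages and osteoclasts, was tested. Mmp9 had 120, 92 and 65 counts in wild-type, 151, 120 and 141 in knock-out and 114, 124 and 168 in ΔTAD libraries. It was called higher in knock-out (log2 fold change 0.59, SE 0.142, edgeR adjusted p = 0.000946) and in ΔTAD macrophages (0.50, SE 0.142, edgeR adjusted p = 0.00416), where the libraries overlapped at 5.95 and 5.98 CPM. Without ΔTAD replicate 1 the call in ΔTAD macrophages was lost (0.42, edgeR adjusted p = 0.0171). Mmp2, the gelatinase whose proenzyme binds TIMP2, had 5 counts in all 9 libraries. Thus RNA for neither MMP14 nor MMP2 exceeded 3 counts in any library while Timp2 rose.

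Mmp9 and the cysteine protease gene Ctsk are also osteoclast markers, and RAW264.7 cells can become osteoclast-like. Of 9 osteoclast markers 7 were tested, of which 5 were higher and 1 was lower in knock-out and 4 were higher and 1 was lower in ΔTAD macrophages. Their summed level was 181 to 201 CPM in wild-type, 321 to 327 CPM in knock-out and 1681 to 1741 CPM in ΔTAD libraries, of which Ctsk made up 1545 CPM on average in the last. Acp5, which encodes tartrate-resistant acid phosphatase, was not called at 2.31, 3.07 and 3.07 CPM, and Calcr, the calcitonin receptor gene, had 1 count in all. Other markers of the list did move. Against wild-type, Atp6v0d2 was called higher in both edited genotypes (log2 fold change 1.78 for knock-out, 0.73 for ΔTAD), as was Nfatc1 (0.52, 0.58). Dcstamp was called in opposite directions (0.82, −0.58). Ocstamp was called lower for knock-out alone (−1.73, with −0.49 for ΔTAD). The part of this list in the values of Timp2, Mmp9 and Adam8 was not tested.

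Among 33 further ADAM and ADAMTS genes 8 were tested, of which 4 were higher and 2 lower in knock-out and 2 higher and 1 lower in ΔTAD macrophages. Their median log2 fold change was 0.09 and 0.10, beside −0.001 and −0.003 over all tested genes. Adam9, a widely expressed sheddase, was higher in both (log2 fold change 0.39 and 0.44, edgeR adjusted p = 1.25e-09 and 1.47e-10). Adamts10, a secreted protease linked to fibrillin microfibrils, rose from 19.7 ± 1.81 CPM (SD, n = 3) to 45.1 ± 1.24 CPM in knock-out and 37.4 ± 1.05 CPM in ΔTAD macrophages (log2 fold change 1.20 and 0.92, edgeR adjusted p = 3.49e-14 and 5.75e-12). The aggrecan-cutting Adamts4 was called in knock-out macrophages (1.10, edgeR adjusted p = 0.00223), at 1.49 ± 0.194 CPM, and its value in ΔTAD was 0.70 (edgeR adjusted p = 0.0519), without a difference between them that passed (0.41, edgeR adjusted p = 0.208). Adamts1, which cuts versican and aggrecan, fell in both (−0.42 and −0.76, edgeR adjusted p = 2.03e-05 and 2.44e-09). The fall of Adam8 was thus not a fall of all ADAM genes. Adam17, which encodes the TNF-converting enzyme, was called lower only in knock-out macrophages (−0.19, edgeR adjusted p = 3.63e-05) and was at 0.01 in ΔTAD macrophages (edgeR adjusted p = 0.782), with a difference between them of −0.21 (edgeR adjusted p = 3.51e-05).

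The listed activators, receptors and inhibitors of pericellular proteolysis moved in both directions. So did the tested genes at large, with 22.8% higher and 22.4% lower in knock-out and 26.3% higher and 23.4% lower in ΔTAD macrophages. Of 26 listed genes 11 were tested, of which 4 were higher and 5 lower in knock-out and 3 higher and 6 lower in ΔTAD macrophages, with medians of −0.12 and −0.28. Plaur, the receptor that holds urokinase on the surface, fell from 137, 131 and 130 CPM in wild-type to 64.9, 70.4 and 70.5 CPM in knock-out and 47.1, 50.6 and 54.5 CPM in ΔTAD libraries (log2 fold change −0.96 and −1.38, edgeR adjusted p = 9.35e-16 and 1.02e-18). The proteoglycan receptors Sdc4 (−0.69 and −0.76, edgeR adjusted p = 9.3e-15 and 1.24e-15) and Sdc1 also fell in both (−0.59 and −1.33, edgeR adjusted p = 2.49e-08 and 2.43e-14). Cst3, which encodes the cathepsin inhibitor cystatin C, rose in both (0.61 and 1.04, edgeR adjusted p = 7.01e-13 and 1.82e-17). Like Timp2 it encodes a secreted protease inhibitor, but its increase was larger in ΔTAD than in knock-out macrophages (difference −0.43, edgeR adjusted p = 1.48e-09). The urokinase gene Plau went in opposite directions, at 0.57 in knock-out and −0.77 in ΔTAD macrophages (edgeR adjusted p = 8.47e-13 and 1.96e-15). Plau lies outside the rule for named genes and was picked after its values were seen, as were Adam17, Cebpg, Cebpb and Lrp1. Lrp1, an endocytic receptor that clears MMP and TIMP complexes, rose in both (0.54 and 0.72, edgeR adjusted p = 3.04e-13 and 1.2e-15).

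**Figure D4:**
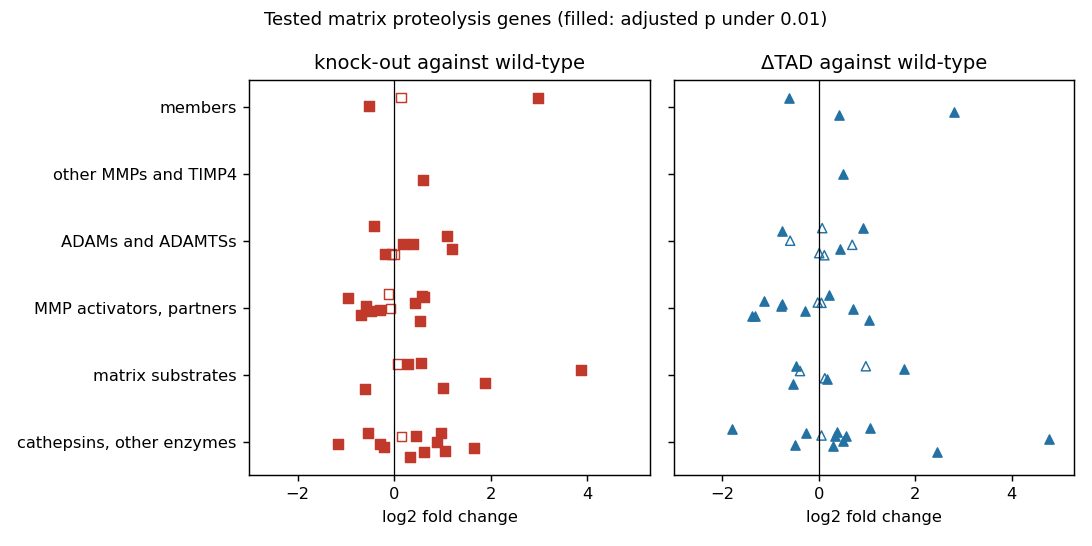
Fitted log2 fold change of each tested gene of 6 lists, knock-out (left) and ΔTAD (right) against wild-type, with filled symbols for an adjusted p under 0.01 and 1 row per list (the vertical scatter within a row has no meaning). Timp2 at 2.98 and 2.81 is among the largest changes, beside Lamb2 at 3.87 in knock-out and Ctsk at 4.78 in ΔTAD macrophages.

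Few genes of the matrix itself were expressed. Of 36 listed substrates of MMPs and neighbouring matrix genes 7 were tested and 14 were at 0 in every library. In knock-out macrophages 5 were higher and 1 was lower, and in ΔTAD macrophages 2 were higher and 2 lower, with medians of 0.56 and 0.13. Lamb2, a laminin chain of basement membranes, had 15, 10 and 9 counts in wild-type, 170, 171 and 152 in knock-out and 8, 5 and 14 in ΔTAD libraries. It was therefore higher in knock-out macrophages alone (log2 fold change 3.87, SE 0.204, edgeR adjusted p = 3.87e-14), with a difference of 4.25 from ΔTAD macrophages (edgeR adjusted p = 6.08e-14). Spp1, which encodes osteopontin, an MMP substrate, rose to 10650 CPM in knock-out and fell to 5019 CPM in ΔTAD macrophages from 7211 CPM in wild-type macrophages (0.56 and −0.52, edgeR adjusted p = 1.03e-18 and 3.42e-18). Col18a1, the precursor of endostatin, was higher in both (1.02 and 1.76, edgeR adjusted p = 0.00157 and 3.88e-07), and Mfge8, a bridge for the uptake of apoptotic cells, was lower in both (−0.60 and −0.47, edgeR adjusted p = 4.89e-13 and 2.81e-11).

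Most of the cathepsins and other matrix-degrading enzymes were expressed. Of 19 listed genes 12 were tested, of which 7 were higher and 4 lower in knock-out and 8 higher and 3 lower in ΔTAD macrophages, with medians of 0.39 and 0.36. Ctsk, the collagen-degrading cathepsin K, was counted 1174, 950 and 914 times in wild-type, 2032, 1623 and 1855 times in knock-out and 22607, 32135 and 31764 times in ΔTAD libraries, or 56.3, 103.4 and 1545 CPM on average. This is a rise of 1.84-fold in knock-out and 27.4-fold in ΔTAD macrophages (log2 fold change 0.88 and 4.78, edgeR adjusted p = 1.24e-15 and 2.22e-29). The elastin-degrading cathepsin S gene Ctss rose in both, from 848 ± 12.7 CPM (SD, n = 3) to 1764 ± 7.18 and 1781 ± 6.57 CPM (1.06 and 1.07, edgeR adjusted p = 2.05e-21 and 1.17e-21), and the difference between the edited genotypes lay between −0.06 and 0.04 (95% confidence interval). The lysosomal Ctsl fell to 44.6% of its wild-type level in knock-out and to 28.9% in ΔTAD macrophages (−1.17 and −1.79, edgeR adjusted p = 3.13e-18 and 8.16e-22). Hpse, the heparanase that cuts heparan sulphate chains, rose from 3.96 ± 0.282 CPM to 12.4 ± 0.425 and 21.4 ± 1.67 CPM (1.65 and 2.45, edgeR adjusted p = 3.11e-12 and 1.75e-16).

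**Figure D5:**
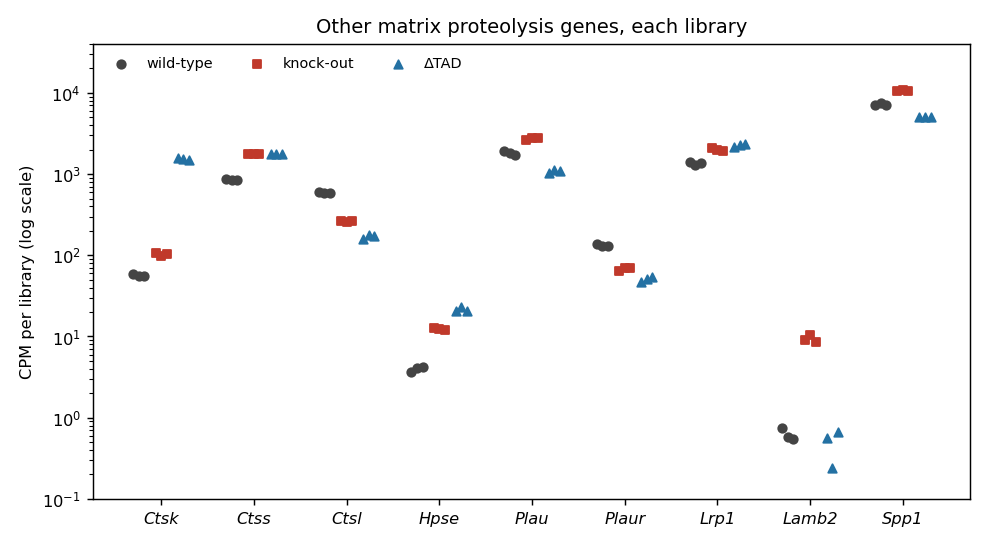
CPM of 9 further genes of matrix proteolysis in each library on a logarithmic axis, with wild-type as circles, knock-out as squares and ΔTAD as triangles. Ctss and Plaur move the same way in both edited genotypes, Ctsk is near 1545 CPM in ΔTAD libraries against 103.4 CPM in knock-out libraries, and Lamb2 stands out in knock-out libraries alone.

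Transcription factors known to act on MMP and TIMP promoters were given as a last list. Of 20 genes 19 were tested, of which 13 were higher and 2 lower in knock-out and 11 higher and 5 lower in ΔTAD macrophages, with medians of 0.29 and 0.34. Cebpa, a C/EBP family member, rose from 3.04 ± 0.857 CPM (SD, n = 3) to 15.9 ± 1.54 CPM in knock-out and 12.4 ± 0.496 CPM in ΔTAD macrophages (log2 fold change 2.40 and 2.05, edgeR adjusted p = 1.25e-13 and 4.41e-12). Of the other listed members of that family, which also bind C/EBP sites, Cebpg rose in both (0.41 and 0.25, edgeR adjusted p = 9.87e-08 and 0.000103) and Cebpb was not called (−0.04 and −0.11, edgeR adjusted p = 0.517 and 0.0548). Fos, an AP-1 subunit, rose in both (1.07 and 2.39, edgeR adjusted p = 4.54e-11 and 5.87e-19). Etv5, an ETS factor, rose in both (0.79 and 0.75, edgeR adjusted p = 5.53e-11 and 1.35e-10), and its relative Etv4 was called lower in ΔTAD macrophages (−1.53, edgeR adjusted p = 6.05e-07) but not in knock-out macrophages (−0.43, edgeR adjusted p = 0.0421), with a difference of 1.09 (edgeR adjusted p = 0.000238).

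Of the 9 genes only Timp2 varied enough between genotypes to search for genes with the same profile. By Euclidean distance between centred log2 CPM profiles over the 9 libraries, the nearest were the noncoding Gm15496 on chromosome 3 and Cav2, a caveolin gene on chromosome 6, at a distance of 0.55 each. Gm15496 was at 1.60, 1.16 and 1.27 CPM in wild-type, 12.8, 13.7 and 13.7 CPM in knock-out and 12.3, 13.3 and 11.6 CPM in ΔTAD libraries. Cav2 was at 0.648, 0.752 and 0.727 CPM in wild-type, 6.59, 5.74 and 6.74 CPM in knock-out and 7.62, 7.15 and 6.62 CPM in ΔTAD libraries. As in Timp2, every edited library of both genes lay above every wild-type library, and the likeness was found by search and carries no test.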

How the data were processed

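Per the labels and the study's methods, total RNA was depleted of ribosomal RNA, sequenced as single-end reads and trimmed with Trimmomatic (0.36 in the submitters' processing notes). Alignment by the authors used Hisat2 and GRCm38, and HTSeq gave the counts per Ensembl gene. The mode and strand setting of the counting are not given in the sources used here. Each deposited file holds raw counts of 1 library, without normalization or filter, for 55487 gene identifiers, of which 55141 matched a symbol in GENCODE. The 5 tally lines, with 46.8% to 53.3% of the records, were left out. Groups came from the genotype labels and replicate numbers from the donor labels.

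Genes were kept by filterByExpr (minimum count 10, minimum total count 15), scaled by TMM and fitted in 1 quasi-likelihood model of all 9 libraries with edgeR 4.0.16 in R 4.3.3. Genes with a Benjamini-Hochberg adjusted p under 0.01 over all 14312 genes tested, the threshold of the study, were called. The SE of a log2 fold change is its size over the root of F. CPM used TMM-scaled library sizes, and CPM per kb the union of GENCODE exons. Intervals of low counts are exact Poisson intervals of counts over library totals. Promoter windows came from RefSeq (GRCm38.p6), which in 8 of 9 genes could be matched by symbol.

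Same-numbered libraries did not deviate together, so the numbers were not taken to pair samples. As alternatives the counts were fitted with limma-voom (limma 3.58.1) and DESeq2 1.42.0, with other scalings and filters, with models of the compared genotypes alone, a replicate block, an adjusted p under 0.05 and leaving out each library. Named were the 9 genes, Cebpd, from each list at most 3 called genes per comparison with wild-type of at least 1 CPM in order of absolute fold change, and the 2 genes most like a member whose genotype means differ by at least 1 on the log2 scale. The 9 genes and the lists were chosen with earlier results of these data known. Other genes were picked after their values were seen. A gene that this rule names is not reported here.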

Additional observations from a re-analysis of the deposited data

Results flagged for a closer look

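Timp2 differed between the edited genotypes by a test of that difference itself, with a log2 fold change of 0.17 for knock-out against ΔTAD macrophages (95% confidence interval 0.08 to 0.26, Benjamini-Hochberg adjusted p = 0.00218 by the quasi-likelihood test of edgeR). All 3 knock-out libraries (64.5 to 68.0 CPM) lay above all 3 ΔTAD libraries (57.6 to 59.4 CPM). Libraries of these genotypes did not overlap for 52.8% of the tested genes. Without knock-out replicate 3 or ΔTAD replicate 2 the log2 fold change of Timp2 was 0.15 and no longer passed the threshold.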

How the results depend on the processing

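Of 153 refits of the fold changes of Timp2, Mmp19 and Adam8, 151 kept their direction and their side of the threshold. Timp2 ranged from 2.96 to 3.0 in knock-out and from 2.72 to 2.83 in ΔTAD against wild-type macrophages, Adam8 from −0.55 to −0.51 and from −0.70 to −0.59, and Mmp19 from 0.10 to 0.19 and from 0.34 to 0.44 on the log2 scale. Between knock-out and ΔTAD macrophages the number of the 9 genes called was 1 as reported, 2 at an adjusted p under 0.05 and 0 to 1 when each library was left out. It fell to 0 without knock-out replicate 3 and without ΔTAD replicate 2, with Timp2 at 0.15 in each. Against wild-type, leaving out each library gave 2 to 2 genes in knock-out and 3 to 3 in ΔTAD macrophages, and over all genes 5817 to 6679, 6422 to 7059 and, between the edited genotypes, 3741 to 4814. With a replicate block 6279, 6900 and 4465 genes were called, and 2, 3 and 1 of the 9 genes, so that no call among them changed. Of 9 pairs of same-numbered libraries 0 correlated above 0.1 in their deviations, and 1 of 9 libraries correlated best with its own number. The depth limits Mmp8, Mmp12, Mmp13, Mmp14, Timp1 and Timp3, for which only differences well above the floor could have been seen.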
